A study of Mus musculus with 22 samples.

Results

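RNA levels of 9 genes for bromodomain proteins and histone acetyltransferases (Brd2, Brd3, Brd7, Brd9, Crebbp, Ep300, Kat2a, Kat2b and Kat5) were examined in mouse embryonic stem cells treated with compounds against chromatin proteins. The genes were taken by symbol from the deposited table of 18487 genes, and all 9 were found and tested. The table held poly(A) RNA values of 22 libraries of the E14 line, 2 for each of 10 compounds and 2 for a group labelled NC, the only group whose label names no compound. The compounds were Bromosporine (a broad inhibitor of bromodomains), CPTH2 and Garcinol (inhibitors of histone acetyltransferases), Valproate (an inhibitor of histone deacetylases), DZNep (which blocks the turnover of S-adenosylhomocysteine and so lowers methylation), Chaetocin (an inhibitor of lysine methyltransferases), IOX1 (a broad inhibitor of 2-oxoglutarate oxygenases), MS023 (an inhibitor of type I arginine methyltransferases), UNC0379 (an inhibitor of the methyltransferase SETD8) and a compound given only as OICR. No genotype change was listed for any group, and dose, duration and solvent were not given in the sources used here, so doses may differ between compounds. The study's methods describe growth in serum with LIF and do not mention the compounds. Nothing in the labels says that the libraries of a group came from separate cultures, so the p-values measure only the spread between these libraries, which may be technical.

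Histone acetyltransferases transfer acetyl groups to lysines of histone tails, and bromodomains are the protein folds that bind acetylated lysine. Brd2 and Brd3 encode BET proteins, which bring elongation factors to acetylated chromatin, while Brd7 and Brd9 encode subunits of separate forms of the SWI/SNF remodelling complex, PBAF and the non-canonical BAF complex. Crebbp and Ep300 (CBP and p300) are paralogous coactivators that acetylate enhancers, Kat2a and Kat2b (GCN5 and PCAF) are paralogous subunits of SAGA and ATAC that acetylate histone H3, and Kat5 (TIP60) is the catalytic subunit of NuA4. Most of the acetyltransferases carry a bromodomain of their own, and Kat5 carries a chromodomain.

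The windows upstream of 3 genes are shown because these genes had the lowest adjusted p-values for variation over the groups, and because Kat2b and Kat2a were lower together with Valproate and Kat2b and Brd7 with DZNep. They were read 5′ to 3′ from the RefSeq promoter table (GRCm38.p6), which held a window for all 9 genes, and run up to the gene start, ending before the first GENCODE exon. The windows are chr17:53566721-53566860 on the plus strand for Kat2b, chr11:100712468-100712717 on the minus strand for Kat2a and chr8:88362195-88362422 on the minus strand for Brd7. Capitals mark matches to a searched motif, here the GC box GGGCGG read on the opposite strand.
Kat2b: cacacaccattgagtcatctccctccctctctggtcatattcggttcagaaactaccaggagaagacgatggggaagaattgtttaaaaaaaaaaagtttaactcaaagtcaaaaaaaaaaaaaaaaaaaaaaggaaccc
Kat2a: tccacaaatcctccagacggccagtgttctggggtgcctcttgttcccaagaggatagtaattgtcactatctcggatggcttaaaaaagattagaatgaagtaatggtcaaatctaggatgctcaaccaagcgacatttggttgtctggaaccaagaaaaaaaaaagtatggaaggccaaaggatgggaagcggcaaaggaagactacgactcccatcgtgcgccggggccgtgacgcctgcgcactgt
Brd7: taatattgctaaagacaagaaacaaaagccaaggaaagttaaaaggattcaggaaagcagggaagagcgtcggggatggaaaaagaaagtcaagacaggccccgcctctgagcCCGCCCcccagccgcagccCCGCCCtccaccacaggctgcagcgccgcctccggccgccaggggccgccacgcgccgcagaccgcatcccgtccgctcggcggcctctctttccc
The 250 bases before the RefSeq start held 6 CG dinucleotides for Kat2b, which was also the median of all 32851 windows, and 11 for Kat2a. Kat5 had 15, Brd7 had 22, and the other 5 genes had from 25 (Ep300) to 44 (Crebbp). The GC box GGGCGG, searched on both strands, was found for 5 of the 9 genes (Brd3, Brd7, Brd9, Crebbp and Ep300) and in 32.7% of all windows. CCAAT was found for Kat2b and Kat5, in Kat2b beyond the bases printed, and in 33.8% of all windows. CGCATGCGC was found for Brd2 and in 1.45% of windows. CCGGAAGT, TGACGT and TATAAA matched none of the 9 windows, against 2.88%, 6.47% and 12.4% of all windows. For Brd3, Crebbp and Ep300 the bases searched lie wholly inside the GENCODE gene, past its start. These are matches of letters and do not show that a factor binds.

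The labelled cell type was checked first. The 8 genes listed for embryonic stem cells were read in every library, with no value under 3429 and sums from 192330 to 291070. Markers of other cells had lower sums, from 120 to 2023 over 7 fibroblast genes, from 193 to 654 over 4 primitive endoderm genes and from 135 to 390 over 3 mesoderm genes. The sums were 240 to 790 over 2 neural genes and 2 to 65 over 2 trophoblast genes. Single values reached 851 for a fibroblast gene and 742 for a neural gene, above the library median of 409. Values were normalized so that each library has nearly the same distribution (library medians of 409 and totals from 38403767 to 38419709), so the depth of each library is not known and a change shared by most genes would not be seen.

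All 9 genes were expressed in every library, with normalized read counts from 809 (Kat5, DZNep replicate 2) to 12098 (Brd2, Bromosporine replicate 2). Per kilobase of the longest transcript, Brd2 had the highest mean level over the libraries (2039.1 per kb) and Kat2a followed (1643.6 per kb). Brd7 (700.8), Kat2b (594.8), Ep300 (590.2), Brd3 (562.9) and Kat5 (523.2) lay close together, and Brd9 (246.6) and Crebbp (191.6) were lowest. With the length of all exons merged, Kat2a (1543.9 per kb) came before Brd2 (1213.4 per kb) and Crebbp stayed last. The deposited counting was not stated to use strand. Exons of Rnaseh2c overlap Kat5 on the opposite strand. Of the 31-base words of the longest Kat5 transcript, 17.9% are shared with other genes on either strand, most often with Rnaseh2c. Rnaseh2c itself was read at 981 to 1867, so the level of Kat5 is uncertain. For Kat2b, 15.4% of such words are shared, most often with the pseudogene Kat2b-ps, which is not a row of the table. For Brd2 the share was 7.2%, most often with H2-DMa, whose values were only 27 to 83.

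**Figure D1:**
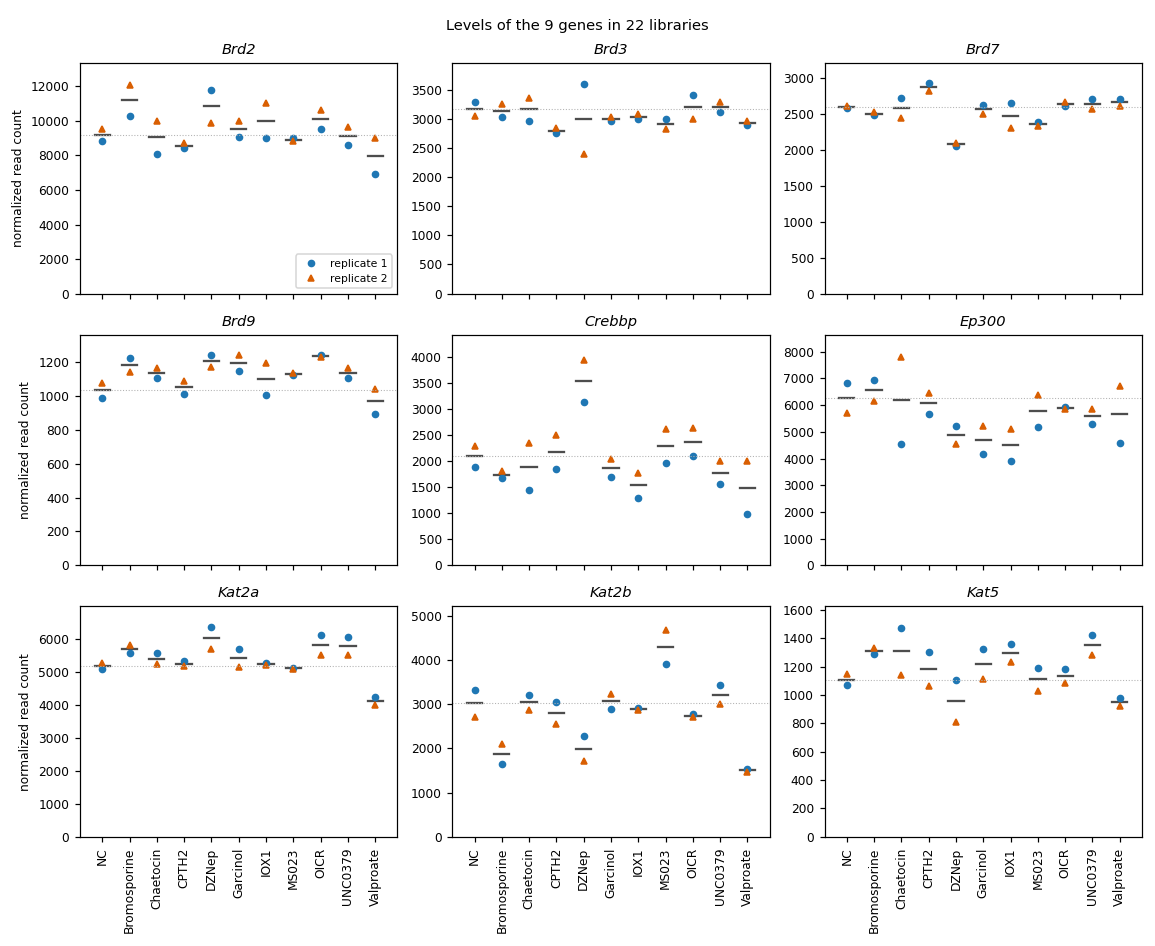
Normalized read count (vertical axis, from 0) of each of the 9 genes in the 22 libraries, by group (horizontal axis); circles are replicate 1, triangles replicate 2, bars the group mean and the dotted line the NC mean. Kat2b is low in the Bromosporine, DZNep and Valproate libraries (1459 to 2274) and high in those of MS023 (3915 and 4668), and Crebbp is high in those of DZNep (3143 and 3957).

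Which of these genes changed with a compound was asked by comparing each compound with NC, 90 gene and compound pairs in all. A pair was called at a limma adjusted p under 0.05 (Benjamini-Hochberg over all 17275 genes tested) with a fold change over 2, on the log2(value + 1) scale. The 10 comparisons share the same 2 NC libraries. Among the 90 pairs 1 was called, Kat2b with Valproate, while 2.15% of all gene and compound pairs were called. By compound the share of all genes called was 11.4% with DZNep, 5.28% with Valproate, 3.34% with Bromosporine, 0.973% with MS023, 0.388% with OICR, 0.116% with IOX1, 0.0174% with Chaetocin, 0.00579% with CPTH2 and with Garcinol and 0% with UNC0379. At any fold 5 pairs had an adjusted p under 0.05, against 4.23% of all pairs, so these counts lay near the share over all genes. At an unadjusted p under 0.05 there were 9 pairs. The libraries of the 2 groups did not overlap in 38 of the 90 pairs, against 40.7% of all pairs. In a test of any difference over the 11 groups, 3 of the 9 genes had an adjusted p under 0.05, against 29.7% of all genes: Kat2b (adjusted p = 0.000531, limma), Kat2a (0.0147) and Brd7 (0.0373). The result for Brd7 stayed under 0.05 in only 5 of 22 fits that each left out 1 library, that for Kat2a in 20 and that for Kat2b in all 22.

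**Figure D2:**
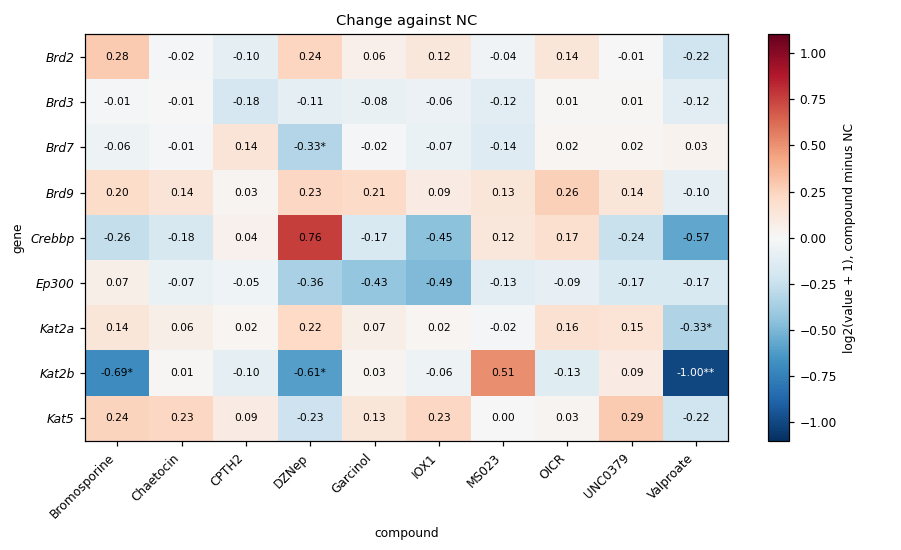
Difference in mean log2(value + 1) between each compound (columns) and NC for the 9 genes (rows), with the value in each cell and blue for lower and red for higher; 1 asterisk marks an adjusted p under 0.05 and 2 asterisks also a fold over 2. Only Kat2b with Valproate (-1.0) has 2 asterisks, and 4 cells have 1.

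Kat2b, on chromosome 17 (53566861 to 53672720, plus strand, mm10), varied the most, with 2.86-fold between the lowest and the highest group mean. Its value was 3321 and 2721 in NC (3021 ± 424, SD, n = 2) and 1543 and 1459 with Valproate (1501 ± 59.4, SD, n = 2). Kat2b thus fell with Valproate by 1.0 on the log2 scale (95% interval -1.35 to -0.65, SE 0.16, adjusted p = 0.00186, limma), in a comparison where 2.55% of all genes were called lower. The size lies at the fold threshold itself, and the pair was called in 20 of 22 fits that left out 1 library. It missed the fold threshold without NC replicate 1 or without Valproate replicate 2, and the change ranged from -1.15 to -0.86 over the 22 fits.

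Kat2b was also lower with Bromosporine and DZNep, where the fold was under 2. It was read at 1649 and 2094 with Bromosporine (1871.5 ± 315, SD, n = 2), a change of -0.69 (SE 0.16, adjusted p = 0.025, limma), beside 3.79% of genes with a lower value at this adjusted p. With DZNep it was read at 2274 and 1712 (1993 ± 397, SD, n = 2), a change of -0.61 (SE 0.16, adjusted p = 0.0149, limma), beside 12.8% of genes. The 6 libraries of these 3 compounds were the 6 lowest of the 22, and the next lowest was 2563 (CPTH2 replicate 2). Neither result rests evenly on the libraries: without NC replicate 1 the adjusted p was 0.226 for Bromosporine and 0.155 for DZNep, without Bromosporine replicate 1 it was 0.214, and without DZNep replicate 2 it was 0.127. Between Valproate and Bromosporine, a comparison chosen after the values were seen, Kat2b differed by -0.31 (95% interval -0.66 to 0.04, adjusted p = 0.228, limma), and by -0.48 without Bromosporine replicate 1 and -0.14 without Bromosporine replicate 2.

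MS023 gave the highest values of Kat2b, 3915 and 4668 (4291.5 ± 532, SD, n = 2), above both NC libraries and above every other library. The change of 0.51 against NC (SE 0.16) did not pass (adjusted p = 0.14, limma). With the other 6 compounds Kat2b lay between 2563 and 3427, and its changes ran from -0.13 (OICR) to 0.09 (UNC0379). The summed neural markers were lower with Valproate (275 and 298), DZNep (240 and 243) and MS023 (252 and 281) than in NC (790 and 566). They were 514 and 531 with Bromosporine. The mesoderm sum was 375 and 327 with Bromosporine, 390 and 224 with DZNep, 190 and 249 with Valproate and 211 and 187 with MS023, against 169 and 168 in NC. The fibroblast sum was 1504 and 1223 with Valproate and 1789 and 2023 with DZNep (767 and 1495 in NC), and the trophoblast sum 32 and 42 and 53 and 65 (2 and 17 in NC). The part of such cells in the results was not tested. In bulk RNA, fewer cells of a type and less RNA per cell cannot be told apart.

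Kat2a, the paralog of Kat2b, on chromosome 11 (100704746 to 100712465, minus strand), was read at 5087 and 5288 in NC (5187.5 ± 142, SD, n = 2). With Valproate it was 4234 and 3998 (4116 ± 167, SD, n = 2), the 2 lowest of the 22 libraries. The change was -0.33 (SE 0.09, adjusted p = 0.029, limma) and 1.26-fold, at an adjusted p that 5.18% of genes reached with a lower value (10.3% in either direction). Leaving out either NC or either Valproate library brought the adjusted p to between 0.072 and 0.149. With DZNep Kat2a was read at 6359 and 5714, a change of 0.22 (SE 0.09, adjusted p = 0.0963, limma). Kat2a and Kat2b therefore lay on the same side of NC with Valproate and on opposite sides with DZNep. The ratio of Kat2a to Kat2b was 1.53 and 1.94 in NC, 2.74 and 2.74 with Valproate, 3.38 and 2.79 with Bromosporine, 2.8 and 3.34 with DZNep and 1.31 and 1.09 with MS023, and it was 1.59 to 2.21 with the other 6 compounds. The ratio is not corrected for length.

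**Figure D3:**
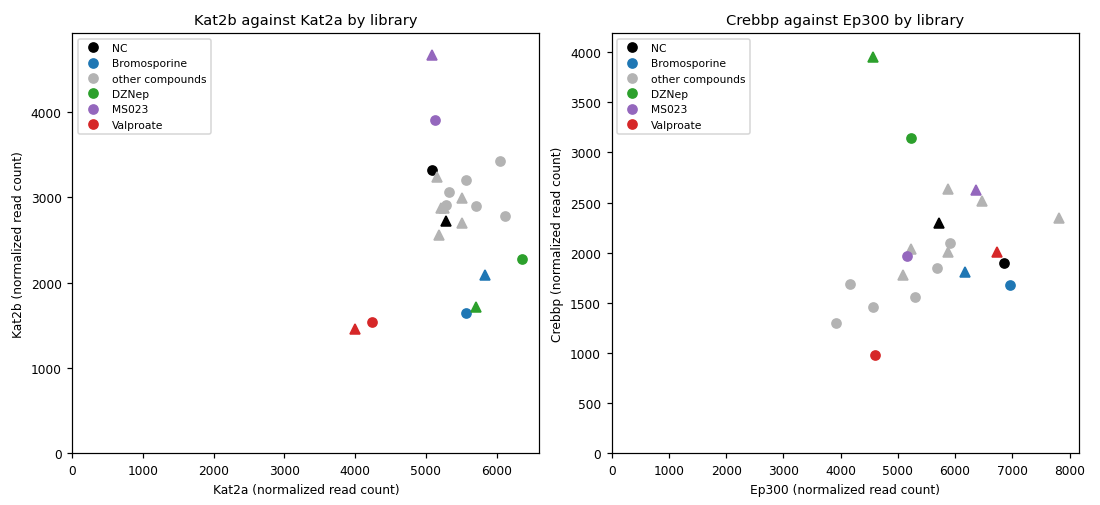
Left, Kat2b against Kat2a, and right, Crebbp against Ep300, as normalized read counts in each of the 22 libraries (circles replicate 1, triangles replicate 2; both axes from 0). The Valproate libraries have the lowest Kat2a values (4234 and 3998), the DZNep libraries the highest Crebbp values (3143 and 3957), and the 6 lowest Kat2b values (1459 to 2274) are those of Valproate, Bromosporine and DZNep.

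Kat5, on chromosome 19 (5603014 to 5610237, minus strand), was read at 1067 and 1145 in NC. Its changes ran from -0.23 (DZNep, 1103 and 809) to 0.29 (UNC0379, 1420 and 1280), and none of the 10 had an unadjusted p under 0.05 (lowest adjusted p = 0.346, limma). The widest bounds of its 95% intervals were -0.58 and 0.64. Kat5 was above NC with 8 of the 10 compounds and below it with Valproate (979 and 921) and DZNep.

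Crebbp, on chromosome 16 (4081328 to 4213997, minus strand), was read at 1894 and 2296 in NC (2095 ± 284, SD, n = 2). With DZNep the values were 3143 and 3957 (3550 ± 576, SD, n = 2). The change with DZNep was 0.76 (SE 0.32), 1.69-fold, with both DZNep libraries above all others. It did not pass in the fit of group means alone (adjusted p = 0.106, limma). With the replicate number as a block the adjusted p was 0.00264 (limma), where 43% of all genes were under 0.05. Within the replicates of number 1 the change was 0.73 and within number 2 it was 0.79. With Valproate Crebbp was read at 979 and 2011, a change of -0.57 (SE 0.32, adjusted p = 0.29, limma). The change was -0.95 within number 1 and -0.19 within number 2. With the block its adjusted p was 0.0212 (limma), where 26.7% of all genes were under 0.05. The direct difference between Valproate and DZNep, a comparison chosen after the values were seen, was -1.33 (SE 0.32, adjusted p = 0.00951, limma; 10.8% of genes were called in it and 23.2% had an adjusted p under 0.05). With 1 of the 4 libraries left out it ran from -1.85 (without Valproate replicate 2) to -0.81 (without Valproate replicate 1), with -1.16 without DZNep replicate 2. Over 2 alternative settings the adjusted p ran from 5.38e-05 to 0.00911 (limma), and the difference was called in both. The call did not hold in all of the fits that left out 1 library. Without Valproate replicate 1 the size of -0.81 was under the fold threshold.

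Ep300, the paralog of Crebbp, on chromosome 15 (81585351 to 81652077, plus strand), was read at 6847 and 5723 in NC. It was below NC in mean with 9 of the 10 compounds and the changes ran from -0.49 (IOX1, 3922 and 5090) to 0.07 (Bromosporine, 6952 and 6170). None had an unadjusted p under 0.05, and the widest bounds of the 95% intervals were -1.0 and 0.58. With DZNep Ep300 was 5224 and 4561, while Crebbp was higher, and the ratio of Crebbp to Ep300 was 0.277 and 0.401 in NC but 0.602 and 0.868 with DZNep, above every other library (0.213 to 0.449). That ratio was not tested.

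The BET genes Brd2 (chromosome 17, 34112023 to 34122634, minus strand) and Brd3 (chromosome 2, 27445579 to 27507662, minus strand) did not pass the test with any compound. Brd2 was read at 8811 and 9518 in NC, at 10288 and 12098 with Bromosporine (change 0.28, SE 0.15) and at 6898 and 9004 with Valproate (-0.22), and no adjusted p was under 0.288. Between Valproate and Bromosporine, again chosen after the values were seen, Brd2 differed by -0.50 (SE 0.15, adjusted p = 0.044, limma; 15.4% of genes reached this adjusted p). The difference was -0.31 (adjusted p = 0.295) without Valproate replicate 1, and the adjusted p was 0.264 and 0.0621 without Bromosporine replicate 2 and replicate 1. Brd3 had the narrowest range of group means, 1.15-fold, and its changes lay between -0.18 (CPTH2) and 0.01 (UNC0379), with a lowest adjusted p of 0.633.

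Brd7, on chromosome 8 (88331039 to 88362194, minus strand), was read at 2586 and 2612 in NC (2599 ± 18.4, SD, n = 2). With DZNep it was 2054 and 2094 (2074 ± 28.3, SD, n = 2), the 2 lowest of the 22 libraries. Its change of -0.33 (SE 0.08, adjusted p = 0.0125, limma) was 1.25-fold, beside 12.8% of genes that were lower at this adjusted p (23.6% in either direction). The adjusted p was 0.0507 without DZNep replicate 1, 0.0642 without NC replicate 1 and 0.0556 without NC replicate 2. Brd9, on chromosome 13 (73937811 to 73960895, plus strand), was read at 988 and 1079 in NC and lay above it in mean with 9 of the 10 compounds, most with OICR (1242 and 1230; change 0.26, SE 0.11), where the adjusted p was 0.387. With DZNep Brd9 was 1245 and 1175, so Brd7 and Brd9 lay on opposite sides of NC. The ratio of Brd7 to Brd9 was 2.62 and 2.42 in NC and 1.65 and 1.78 with DZNep.

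Bromosporine, CPTH2 and Garcinol act on bromodomains or acetyltransferases themselves, and with them none of the 9 genes was called. With CPTH2 the changes of the 9 genes ran from -0.18 to 0.14 and with Garcinol from -0.43 (Ep300, 4159 and 5224) to 0.21, and no adjusted p was under 0.967. Only 0.00579% of all genes were called in either comparison (1 gene in each). With Bromosporine Kat2b alone had an adjusted p under 0.05, at any fold, where 5.4% of all genes did. With Valproate the median change of the 9 genes was -0.22, against -0.02 over all genes. Only Kat2a and Kat2b had an adjusted p under 0.05 there, where 10.3% of all genes did. The values of Brd2, Brd9, Crebbp and Ep300 with Valproate overlapped those of NC.

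The 2 libraries of each group carry the numbers 1 and 2, and these numbers moved with some of the genes. Crebbp was higher in replicate 2 than in replicate 1 in 11 of 11 groups, by 0.43 on the log2 scale (SE 0.07, adjusted p = 0.000304, limma). The difference ran from 0.11 to 1.04 over the groups. Kat5 was lower in replicate 2 in 9 of 11 groups (-0.17, SE 0.05, adjusted p = 0.00985) and Brd2 higher in 9 of 11 (0.14, SE 0.05, adjusted p = 0.0372). None of the 9 genes was called between the numbers, against 4.04% of all genes, and 3 had an adjusted p under 0.05, against 52.6%.

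**Figure D4:**
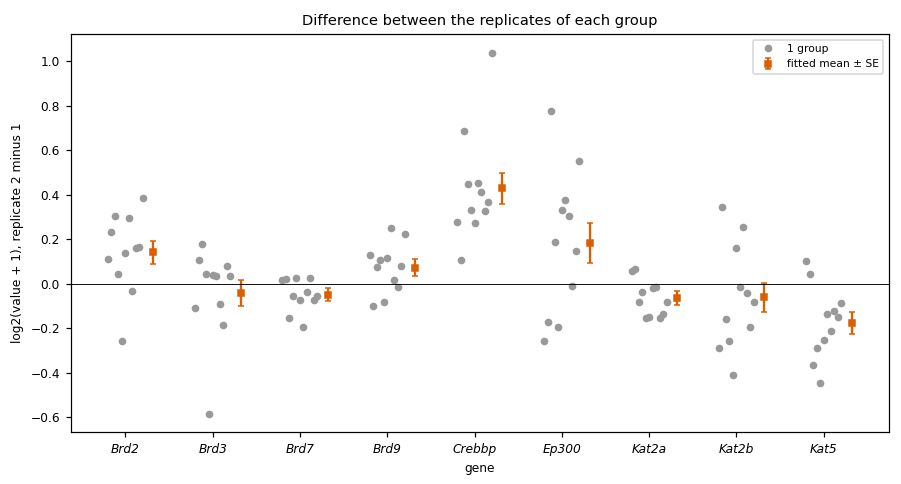
Difference in log2(value + 1) between replicate 2 and replicate 1 of each of the 11 groups (grey points) for the 9 genes, with the fitted mean and its SE (orange squares). All 11 points of Crebbp lie above 0, from 0.11 to 1.04, and Kat5 has 9 points below 0.

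Partners and relatives of these proteins were read from lists of 29 other bromodomain genes, 9 other acetyltransferases, 22 SAGA and ATAC partners, 15 NuA4 partners and 21 SWI/SNF partners, 96 genes in all and all tested. Of the 96, 2 were called with Bromosporine (2.08%, against 3.34% of all genes), 2 with DZNep (2.08%, against 11.4%), 3 with Valproate (3.12%, against 5.28%) and 1 with OICR, and none with the other 6 compounds. Trim66, a bromodomain gene, was read at 425 and 359 in NC and fell to 115 and 133 with Bromosporine (-1.65, SE 0.22, adjusted p = 0.00109, limma), to 130 and 159 with Valproate (-1.44, adjusted p = 0.00129) and to 149 and 161 with OICR (-1.33, adjusted p = 0.0167). The call with OICR was lost without NC replicate 1 and without either OICR library, with the other 10 groups averaged as reference, and when OICR and NC alone were fitted. Brdt, the BET gene of the male germ line, rose from 44 and 44 in NC to 450 and 507 with Valproate (3.41, SE 0.82, adjusted p = 0.0172, limma). When Valproate and NC alone were fitted, no gene of the lists was called.

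Among SWI/SNF partners, 6 of 21 were lower and 1 higher with DZNep at an adjusted p under 0.05, against 12.8% and 10.7% of all genes, and 6 were lower and none higher with Valproate, against 5.18% and 5.13%. The median change of the list was -0.14 with DZNep (-0.04 over all genes) and -0.26 with Valproate (-0.02). Phf10, a subunit of PBAF like Brd7, fell from 5488 and 5372 in NC to 1331 and 2254 with DZNep (-1.65, SE 0.19, adjusted p = 5.47e-05, limma), and was 2812 and 3147 with Valproate (-0.87, adjusted p = 0.0097). Phf10 was also lower with Bromosporine, at 3387 and 3185 (-0.725, adjusted p = 0.0392, limma). Its changes with the other compounds ran from -0.55 (IOX1) to 0.14 (MS023), and none passed. Another PBAF subunit, Arid2, was 2379 and 2343 in NC and 1553 and 1475 with DZNep (-0.64, SE 0.17, adjusted p = 0.0155, limma). Pbrm1, at 1756 and 1302 in NC and 2222 and 923 with DZNep, did not pass (-0.08, SE 0.43, adjusted p = 0.925, limma). Its libraries differed widely, so a change of Pbrm1 was not excluded. These last 2 genes were chosen after their values were seen. The lower values with DZNep were not limited to Phf10 and Arid2. The other lower genes were Arid1b (-0.60, adjusted p = 0.00174, limma), Bcl7a (-0.65, 0.00366), Smarcd1 (-0.41, 0.00789) and Smarcd2 (-0.41, 0.0356). The higher gene was Gltscr1l (0.68, adjusted p = 0.0342, limma). Smarcd3, with 983 and 2224 in NC, had 285 and 420 with Valproate (-2.09, SE 0.51, adjusted p = 0.0188, limma) and 189 and 512 with Bromosporine (-2.24, adjusted p = 0.022), and its NC libraries differed more than 2-fold.

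NuA4 partners of Kat5 gave 4 of 15 higher and none lower with DZNep, against 10.7% and 12.8% of all genes, with a list median of 0.25. The 4 were Dmap1, Morf4l1, Ruvbl1 and Ruvbl2, of which Ruvbl1, an ATPase of several complexes, was 2394 and 2710 in NC and 3799 and 3453 with DZNep (0.51, SE 0.13, adjusted p = 0.0102, limma). This was not particular to DZNep. With Bromosporine 2 of 15 were higher (Yeats4 and Meaf6) and none lower, against 1.61% and 3.79% of all genes. The list median was 0.17 with Bromosporine, with MS023 and with OICR. It ran from -0.02 (Chaetocin) to 0.07 (IOX1) with the remaining compounds. Among the SAGA and ATAC partners of Kat2a and Kat2b only Eny2, of the deubiquitinase module, was called, with 1008 and 1658 in NC and 2468 and 4298 with DZNep (1.33, SE 0.31, adjusted p = 0.0069, limma).

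The genes whose 11 group means followed each member most closely were named as a description, with Pearson's r over 11 points that come from the same libraries. The 2 closest of 13729 candidates were Chd2 (0.962) and Psme2 (0.951) for Kat2b, Elp6 (0.954) and Kbtbd4 (0.941) for Kat2a, and Tspyl4 (0.97) and Gcfc2 (0.962) for Kat5. They were Bcl2l1 (0.955) and Cdkn3 (0.953) for Crebbp, P4ha1 (0.943) and Gpatch8 (0.94) for Ep300, and Cpsf1 (0.939) and Nid2 (0.937) for Brd7. For Brd2 they were Upf3a (0.948) and Pole4 (0.929), for Brd9 Gm43863 (0.946) and Ppp4r3a (0.945), and for Brd3, whose group means hardly differed, Igf2bp1 (0.796) and Meis2 (0.781). Within the libraries of 1 replicate number some matches were weaker. In number 2, r was 0.507 for P4ha1, 0.622 for Upf3a and 0.637 for Elp6, and Meis2 had 0.466 and 0.49 in numbers 1 and 2. Others were close in both numbers, such as Chd2 (0.936 and 0.938) and Tspyl4 (0.933 and 0.964). No member was among the 2 closest of another. Between members r was highest for Kat2a with Brd9 (0.854), Kat2a with Brd2 (0.779) and Brd2 with Brd9 (0.778).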

How the data were processed

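RNA was measured in 22 libraries of E14 mouse embryonic stem cells, 2 in each of 11 groups, with the group read from the treatment label and the replicate number from the title. The authors deposited normalized read counts rounded to whole numbers, which were treated as scores. The submitters' processing notes name Bowtie2 (2.2.5), RSEM and the build mm10. The study's methods use Bowtie2 with RSEM for gene expression and EDASeq at its full-quantile setting for normalization. These methods were assumed to apply here although they name no compound. Whether counting used strand is not given in the sources used here. Full-quantile normalization gives all libraries the same distribution, hides depth and makes some values identical between libraries. A second table held the authors' means per group and was not used. All columns matched a sample title.

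The log2(value + 1) scale was used with limma 3.58.1 under R 4.3.3 (11 group means, moderated variances with a trend, 11 residual degrees of freedom), for genes with at least 10 in at least 2 libraries (17275 of 18487). A count test was not used, since the values are not raw counts. P-values are two-sided and adjusted by Benjamini-Hochberg within each comparison. Calls needed an adjusted p under 0.05 and a fold over 2. On simulated data for Valproate against NC, with 200 of 17275 genes changed, 82 of 100 genes changed by 1.5 on the log2 scale and 91 of 100 changed by 2 were found, with 3 false calls; smaller changes were not simulated. The 9 genes, the lists of partners and the tests were chosen with earlier results of these data known. For the 9 genes every pair with an unadjusted p under 0.05 was given its SE and adjusted p, and other pairs were given by range. From each list up to 4 called pairs were named, with the lowest adjusted p, libraries not overlapping and a group mean of at least 100. The closest genes were the 2 with the highest r among genes above 0 in all libraries with a group mean of at least 100. Lengths, positions and shared 31-base words came from GENCODE M21 (mm10). Alternatives were another pseudocount, no filter, a fit of the compound and NC alone, the replicate number as a block, median-ratio rescaling, the mean of the other 10 groups as reference, adjustment over all comparisons, any fold, and leaving out each library.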

Additional observations from a re-analysis of the deposited data

How the results depend on the processing

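With Valproate, where 1 of the 9 genes was called, none was called with a pseudocount of 10, when only the compound and NC were fitted, after median-ratio rescaling or against the mean of the other 10 groups (0 in each), 2 passed at any fold, and the number was 0 to 1 with each library left out in turn (0 without NC replicate 1 and without Valproate replicate 2). At any fold the number was 1 with Bromosporine and 2 with DZNep. Between the replicate numbers it was 3 at any fold, and 0 with the fold threshold. The genes varying over the 11 groups were 3, with 1 to 3 when each library was left out (1 without Valproate replicate 1). Of the 96 partners and relatives, none was called when only the compound and NC were fitted with Bromosporine, DZNep, OICR or Valproate (0 in each). At any fold the counts were 5 with Bromosporine, 17 with DZNep and 14 with Valproate. With the mean of the other 10 groups as reference, 1 was called with MS023 and 0 with OICR. Leaving out each library gave 1 to 2 with Bromosporine (1 without Bromosporine replicate 1 and without NC replicate 2), 0 to 1 with OICR (0 without NC replicate 1 or either OICR library) and 1 to 3 with Valproate (1 without NC replicate 2 and without Valproate replicate 1). The cause of these differences was not tested. The fits of only the compound and NC also held fewer libraries.

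The replicate numbers pair no samples in the labels, and deviations of libraries with the same number correlated at r from 0.0836 to 0.183 between NC and the compounds, over 0.1 in 8 of 10, and with a median r of 0.196 and a highest of 0.298 over all 55 pairs of groups, over 0.1 in 51. With the number as a block, 1 of the 90 pairs was called as before, 8 passed at any fold (5 without it), 5 of the 9 genes varied over the groups (65.9% of all genes did), and the 3 pairs that passed only with it were Crebbp with DZNep (adjusted p = 0.00264, limma), Crebbp with Valproate (0.0212) and Kat2a with DZNep (0.0246). Of the 96 other genes, 4 were called with DZNep under the block. Over the alternatives other than leaving out a library, the adjusted p ran from 0.000199 to 0.145 for Kat2b with Valproate, from 0.00819 to 0.232 for Kat2b with Bromosporine, from 0.00725 to 0.199 for Kat2b with DZNep, from 0.000725 to 0.231 for Kat2a with Valproate and from 0.00165 to 0.171 for Brd7 with DZNep, each highest when only the compound and NC were fitted. No change of a named pair reversed. The unknown depth and 2 libraries per group limit what small changes can be seen.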
